A study of Mus musculus with 24 samples.

Results

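Myoglobin and the genes of red blood cells are the oxygen-binding side of skeletal muscle and of the blood it holds. *Mb* encodes myoglobin, the haem protein that stores and carries oxygen inside muscle fibers. *Hba-a1* and *Hba-a2* encode α-globin, and *Hbb-b1* and *Hbb-b2* encode adult β-globins, which together with haem form haemoglobin. *Alas2* encodes the erythroid form of 5-aminolevulinate synthase, the first enzyme of haem synthesis. *Slc4a1* encodes band 3, the anion exchanger of the red cell membrane. Globin RNA in a muscle sample is usually brought by young red cells (reticulocytes), whereas *Mb* is transcribed by the muscle fibers themselves. Probes were taken by gene name, with *Mb* kept apart from the blood genes. Each of the 7 genes was read by exactly 1 of the 55681 non-control probes, and 6 of the 7 were among the 14421 probes that were bright enough to be tested.

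The RNA came from *M. gastrocnemius* of male C57BL/6JOlaHsd mice, with 12 mice kept at 20.9% oxygen (Norm) and 12 at 12% oxygen for 6 h (Hypox). All mice arrived at 10 weeks of age, were housed individually and ate a low-fat diet (10% of energy) for 3 weeks and a high-fat diet (40% of energy) for 6 weeks, and both groups were fasted for the exposure. The muscle was ground whole. The mice were killed by decapitation and their blood was collected before the tissues were taken, and no perfusion is given in the sources used here, so that RNA of blood left in the muscle was measured together with that of the fibers. Each 2-colour array carried the RNA of 1 mouse in Cy5 and a pool of all samples in Cy3. A value is the normalized log2 ratio of Cy5 over Cy3, so that a difference of 1 between mice is a doubling. After the normalization 0 need not be the level of the pool. For example, *Hba-a1* averaged -0.59 in Norm and -0.44 in Hypox. In such bulk RNA, fewer cells of a type and less RNA per cell cannot be told apart.

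The 24 arrays lay on 6 slides, with 2 Norm and 2 Hypox arrays on each. The mean Cy5 signal of an array had a Norm range of 58.3 to 933 and a Hypox range of 63.5 to 1014. Slide 1 was the dimmest, with array means from 58.3 to 102 against 124 or more on all other slides. On slide 1 the log2 ratios of the 337 brightest probes (mean log2 intensity over 14) were higher than on the other slides by a median of 1.09, against a median of -0.0096 over all 14421 probes. *Mb* and *Hba-a2* are among the bright probes, and results for them are given with and without slide 1. Markers of skeletal muscle were present, since 10 of 10 fast fiber and 10 of 10 slow fiber genes were bright enough to be tested. The fast troponin *Tnni2* was 3892 times its local background. These markers cannot tell *M. gastrocnemius* from another muscle.

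The arrays read the α-globin genes at 2 different places. The *Hba-a1* and *Hbb-b2* probes hold a reading frame without a stop codon over all 60 bases, and they are shown because the near-identical coding sequences of the globin genes make it possible for such a probe to read RNA of more than 1 gene. The *Hba-a2* probe has no such frame and contains the polyadenylation signal AATAAA. Probe sequences are from the scanner output, 5′ to 3′ in lower case.
Hba-a1: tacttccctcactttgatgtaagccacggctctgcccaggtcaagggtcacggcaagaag
Hbb-b2: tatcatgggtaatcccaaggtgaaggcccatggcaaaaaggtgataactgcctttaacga

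In the mm9 build that the scanner files use, the *Hba-a1* probe lies on chromosome 11 at 32183955 to 32184014 and the *Hba-a2* probe on the same chromosome at 32197245 to 32197304, both on the plus strand. The *Mb* probe lies on chromosome 15 at 76846069 to 76846128 (minus strand), the *Hbb-b1* probe on chromosome 7 at 110961105 to 110961164 (minus), the *Alas2* probe on chromosome X at 147004993 to 147005052 (plus) and the *Slc4a1* probe on chromosome 11 at 102210256 to 102210315 (minus). The *Hbb-b2* probe has no position in the files, and the promoter windows used here held none for *Hbb-b2*. Its values may thus be those of other β-globin RNA, and which RNA it read was not tested. The gene names are those of the array design. By transcript accession, RefSeq now calls the gene of the *Hbb-b1* probe *Hbb-bt*, and the gene of a further β-globin probe, named Beta-s on the array, *Hbb-bs*. The first 46 bases of the Beta-s probe match the RefSeq start of *Hbb-bs* exactly, whereas 7 of the 45 bases that can be set against *Hbb-bt* differ. No annotation of mm9 was used here, so that exons and introns under the probes are not given.

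The promoters of the blood genes and of *Mb* differ in short motifs that are well known from globin promoters. GATA1, the main erythroid transcription factor, binds GATA motifs, KLF1, another erythroid factor, binds CACCC boxes, and CCAAT and TATA boxes are general promoter elements. The 250 bases before the transcription start (RefSeq, GRCm38.p6) are shown for 4 genes because they hold these motifs in different numbers, with every match on either strand in capitals. The motifs searched were the GATA motif (letters GATAA), the KLF1 box (letters CACCC), the CCAAT box (these letters) and the TATA box (letters TATAA). Of 32851 promoter windows of this length, 22.6% hold the GATA motif, 52% the KLF1 box, 33.8% the CCAAT box and 22.8% the TATA box.
Hba-a1: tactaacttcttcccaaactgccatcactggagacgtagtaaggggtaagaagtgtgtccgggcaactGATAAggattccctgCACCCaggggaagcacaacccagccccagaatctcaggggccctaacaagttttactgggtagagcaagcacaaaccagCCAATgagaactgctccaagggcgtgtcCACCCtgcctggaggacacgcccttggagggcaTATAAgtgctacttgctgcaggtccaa
Hbb-bt: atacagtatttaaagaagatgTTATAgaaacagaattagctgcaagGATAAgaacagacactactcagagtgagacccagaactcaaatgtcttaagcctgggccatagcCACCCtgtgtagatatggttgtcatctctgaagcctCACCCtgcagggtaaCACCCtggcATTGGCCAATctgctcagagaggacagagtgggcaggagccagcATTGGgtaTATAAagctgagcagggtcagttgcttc
Alas2: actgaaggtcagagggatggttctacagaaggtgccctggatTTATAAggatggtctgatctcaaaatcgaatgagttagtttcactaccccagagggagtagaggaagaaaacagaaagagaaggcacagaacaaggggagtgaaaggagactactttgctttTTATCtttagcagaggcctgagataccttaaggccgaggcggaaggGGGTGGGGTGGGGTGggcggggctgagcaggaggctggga
Mb: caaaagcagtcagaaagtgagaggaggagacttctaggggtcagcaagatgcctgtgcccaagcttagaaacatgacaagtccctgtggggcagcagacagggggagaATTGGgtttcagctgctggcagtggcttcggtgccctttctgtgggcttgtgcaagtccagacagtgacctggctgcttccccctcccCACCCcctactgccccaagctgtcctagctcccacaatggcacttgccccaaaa

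These windows lie at chr11:32283422-32283671 (plus), chr7:103813924-103814173 (minus), chrX:150547167-150547416 (plus) and chr15:77022788-77023037 (minus). *Hba-a1*, *Hbb-bt* and *Alas2* each hold 1 GATA motif, and the *Mb* window shown holds none, as do the other 2 windows that RefSeq gives for *Mb*. *Hba-a1* holds 2 KLF1 boxes, 1 CCAAT box and 1 TATA box, and *Hbb-bt* holds 3 KLF1 boxes, 3 CCAAT boxes and 2 TATA boxes. *Alas2* holds 3 adjacent KLF1 boxes on the reverse strand and no CCAAT box. Its 2 overlapping TATA box matches lie in 1 stretch, TTATAA, that matches on both strands. *Mb* holds 1 KLF1 box and 1 CCAAT box. The *Hba-a1* and *Hba-a2* windows, which run on to 50 bases after the start, were identical in 297 of the 297 bases that overlap at an offset of 3 bases. A match describes letters in a window and not a bound site.

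No difference between the hypoxic and normoxic mice was past the test in any of the 6 genes tested. In limma's moderated test none of them passed an adjusted P-value of 0.05, which 0.943% of all probes passed (136 of 14421), and none passed an unadjusted P-value of 0.05, which 13.8% of all probes passed (1996 of 14421). The estimates ranged from -0.13 (*Mb* and *Hba-a2*) to 0.22 (*Hbb-b1*) on the log2 scale, against a median of 0.022 over all probes tested. All group ranges overlapped.

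**Figure D1:**
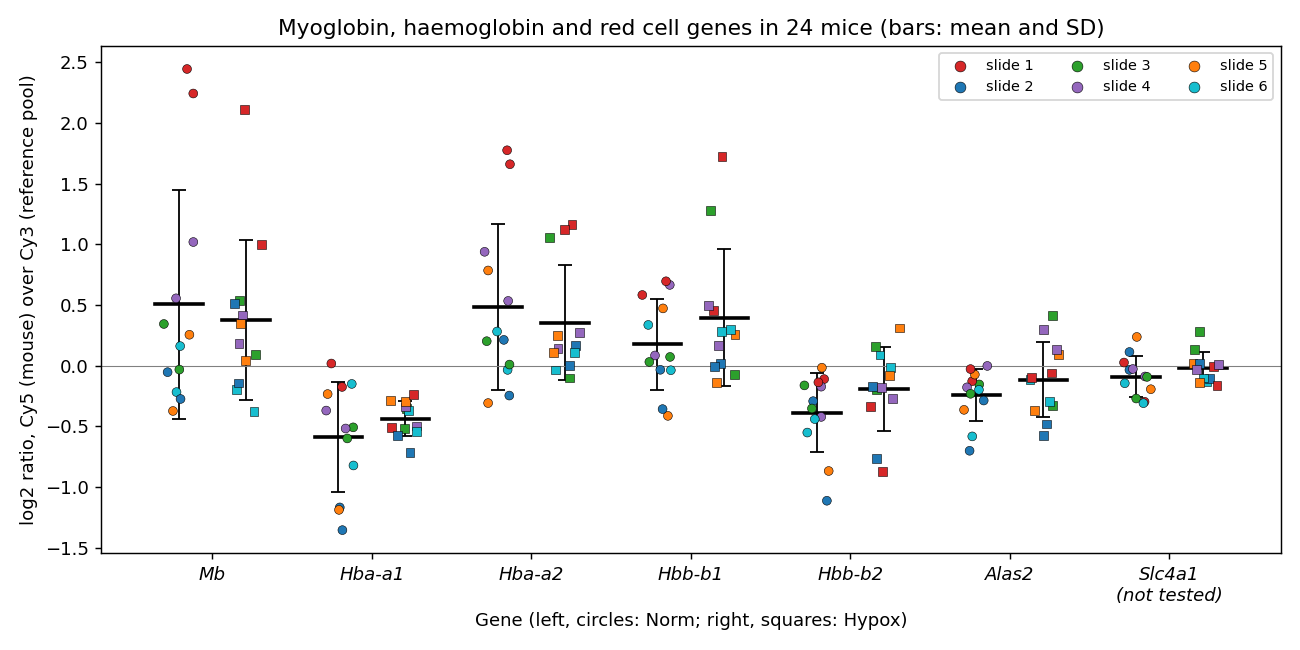
Log2 ratio of Cy5 (1 mouse) over Cy3 (reference pool) for the 7 genes in all 24 mice, with Norm as circles, Hypox as squares, slides as colours and bars for the mean and SD of each group. For *Mb* and *Hba-a2* the arrays of slide 1 lie at the top of both groups, and the groups overlap for every gene.

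Myoglobin was measured far above background on all 24 arrays, and no difference between the groups was past the test. Its Cy5 signal was 1132 times the local background on average, a figure that describes the probe and is no level to set against that of another gene. The log2 ratio in Norm ranged from -0.37 to 2.45 with a median of 0.21, and in Hypox from -0.38 to 2.11 with a median of 0.27. The highest 2 values of each group were those of slide 1, where *Mb* ranged from 1.00 to 2.45 against -0.38 to 1.02 on the other slides. The Norm mean was 0.51 ± 0.94 (SD, n = 12) and the Hypox mean was 0.38 ± 0.66 (SD, n = 12), so that the log2 fold change was -0.13 (SE 0.31, limma adjusted P = 0.875). The 95% interval ran from 0.592-fold to 1.41-fold.

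Without slide 1 the groups were closer still in *Mb* and less spread. The Norm mean was 0.14 ± 0.43 (SD, n = 10) and the Hypox mean was 0.14 ± 0.31 (SD, n = 10), so that the log2 fold change was 0.0033 with a 95% interval from -0.32 to 0.32 (limma adjusted P = 0.995). With slide as a block over all 24 arrays the interval ran from -0.43 to 0.17 on the log2 scale. Within slides the Hypox mean was the higher one on 3 of 6, with differences from -0.79 on slide 1 to 0.35 on slide 2. The *Mb* log2 ratio also followed the brightness of the array, with r = -0.834 against log2 of the mean Cy5 signal over 24 arrays and r = -0.461 after slide means were removed, and the part of brightness in the *Mb* values was not tested.

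No difference was past the test for the 2 α-globin probes, and the sign for *Hba-a2* depended on the processing. It was negative here and positive with the scanner software's processed signals (0.022), median centring in place of loess (0.52), Cy5 alone (0.13) and the deposited values (0.33), whereas *Hba-a1* was positive in all of these. *Hba-a2*, at 468 times its background, ranged from -0.31 to 1.78 in Norm (median 0.25) and from -0.10 to 1.16 in Hypox (median 0.15). Both slide 1 arrays of each group were its highest values in that group. Norm averaged 0.48 ± 0.69 (SD, n = 12) and Hypox 0.35 ± 0.47 (SD, n = 12), a log2 fold change of -0.13 (SE 0.22, limma adjusted P = 0.821).

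*Hba-a1*, at 56.4 times its background, ranged from -1.36 to 0.017 in Norm (median -0.51) and from -0.72 to -0.24 in Hypox (median -0.43). The lowest 4 of all 24 mice were Norm mice, and the highest was a Norm mouse as well. Without the lowest (Norm replicate 9) the log2 fold change was 0.083. Norm averaged -0.59 ± 0.45 (SD, n = 12) and Hypox -0.44 ± 0.14 (SD, n = 12), a log2 fold change of 0.15 (SE 0.13, limma adjusted P = 0.636). Without slide 1 the estimate for *Hba-a1* was 0.24 (95% interval -0.032 to 0.52) and that for *Hba-a2* was -0.040 (95% interval -0.36 to 0.28). The 2 probes thus gave intervals that overlapped. The difference between the groups in the spread of *Hba-a1* was not tested.

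The β-globin probes were both higher in Hypox by an amount within the spread. *Hbb-b1*, at 73.4 times its background, ranged from -0.41 to 0.70 in Norm (median 0.078) and from -0.14 to 1.73 in Hypox (median 0.27). Hypox mice on slide 1 and on slide 3 gave the 2 highest values, 1.73 and 1.28, above every Norm mouse, and without the first the log2 fold change was 0.10. Norm averaged 0.17 ± 0.38 (SD, n = 12) and Hypox 0.40 ± 0.56 (SD, n = 12), a log2 fold change of 0.22 (SE 0.18, limma adjusted P = 0.623) that was 0.011 with array weights.

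*Hbb-b2*, at 16.2 times its background, ranged from -1.11 to -0.017 in Norm (median -0.32) and from -0.87 to 0.31 in Hypox (median -0.18). The 3 highest mice were all Hypox mice, and the lowest was a Norm mouse. Norm averaged -0.39 ± 0.33 (SD, n = 12) and Hypox -0.20 ± 0.35 (SD, n = 12), a log2 fold change of 0.19 (SE 0.13, limma adjusted P = 0.546). On slide 1 the difference was -0.48, whereas on the other 5 slides it lay between 0.072 and 0.56. Without slide 1 the log2 fold change was 0.33 (95% interval 0.052 to 0.60). Its unadjusted limma P = 0.0216 did not pass adjustment over all probes (adjusted P = 0.233). In that setting 2260 of 14421 probes had an unadjusted limma P-value under 0.05. Slide 1 was left out after the data were seen. *Hbb-b2* was not higher on it than elsewhere (mean -0.37 against -0.28), unlike *Mb* and *Hba-a2*.

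**Figure D2:**
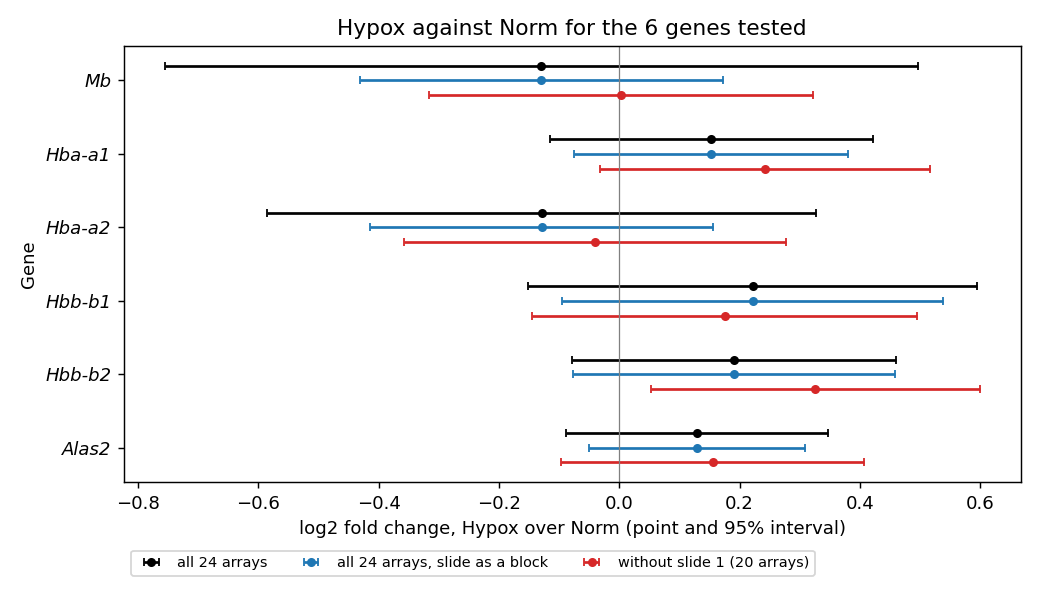
Log2 fold change of Hypox over Norm (points) with 95% intervals (bars) for the 6 genes tested, over all 24 arrays, with slide as a block, and without slide 1. Of these 18 intervals, that of *Hbb-b2* without slide 1 (0.052 to 0.60) lies wholly above 0. Slide 1, left out after the data were seen, was the slide where *Hbb-b2* was lower in Hypox (-0.48).

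*Alas2*, the red cell enzyme of haem synthesis, was dim. Its Cy5 signal was 2.46 times the background, and the scanner software called it well above background on 7 of the 12 Norm arrays and 8 of the 12 Hypox arrays. It ranged from -0.70 to -0.0027 in Norm (median -0.19) and from -0.57 to 0.41 in Hypox (median -0.11). The 4 highest values were all those of Hypox mice, at 0.41, 0.29, 0.14 and 0.090. Norm averaged -0.24 ± 0.21 (SD, n = 12) and Hypox -0.12 ± 0.31 (SD, n = 12), a log2 fold change of 0.13 (SE 0.11, limma adjusted P = 0.623).

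*Slc4a1* was not measurable in this muscle RNA at the brightness of these arrays. Its Cy5 signal was 1.34 times the background, and it was well above background on 0 of the 12 Norm arrays and 1 of the 12 Hypox arrays, although the reference pool was on 15 of 24. It did not pass the limit of 2 times the background and entered no test. Its log2 ratios ranged from -0.31 to 0.24 in Norm (median -0.091) and from -0.16 to 0.28 in Hypox (median -0.019), with a difference of the means of 0.072. A log2 ratio of a probe at background does not describe the RNA.

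Within slides the differences of each of the 5 blood genes tested went both ways, with single differences of up to 0.62 (*Hba-a1*, slide 2) between means of 2 arrays. The Hypox mean was the higher one on 5 of 6 slides for *Hba-a1*, *Hbb-b1* and *Hbb-b2* and on 4 of 6 for *Alas2*, but on 2 of 6 for *Hba-a2*. The slide of exception was slide 1 for *Hba-a1* (-0.29) and *Hbb-b2* (-0.48) and slide 4 for *Hbb-b1* (-0.043). These counts rest on 2 arrays a group and slide and were not tested. With slide as a block, limma gave adjusted P-values from 0.494 (*Alas2*) to 0.694 (*Mb*) for the 6 genes.

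**Figure D3:**
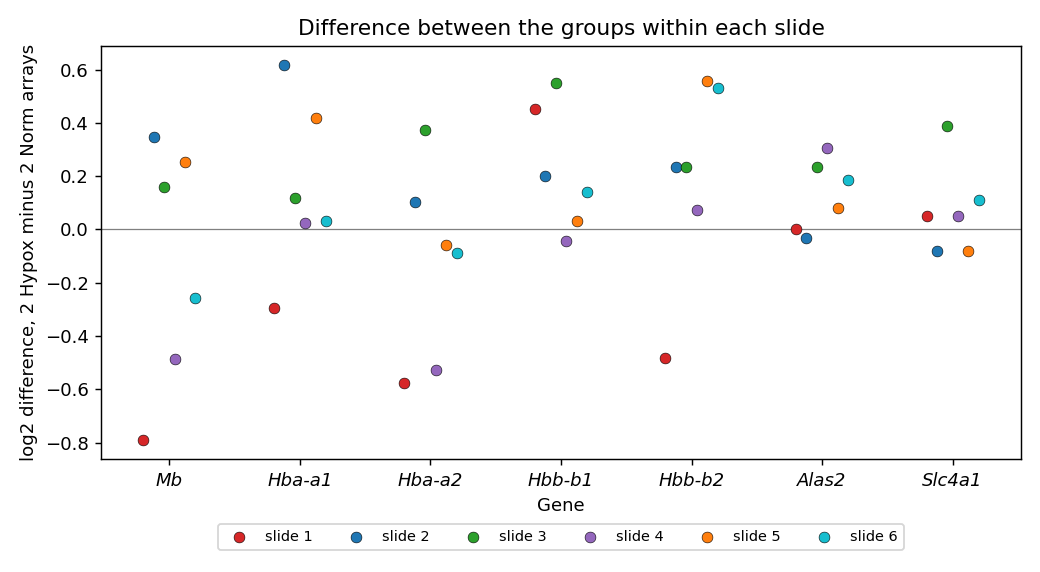
Mean log2 ratio of the 2 Hypox arrays minus that of the 2 Norm arrays on each of the 6 slides, for the 7 genes. *Mb* lies on both sides of 0, from -0.79 to 0.35. *Hba-a1*, *Hbb-b1* and *Hbb-b2* lie above 0 on 5 of 6 slides and *Hba-a2* on 2 of 6, counts that were not made over all probes.

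The spread among arrays within groups was large for *Mb*, *Hba-a2* and *Hbb-b1* and smaller for *Hba-a1* and *Hbb-b2*. The residual SD of *Mb* within groups was 0.81 on the log2 scale, above that of 98.3% of all probes tested, and those of *Hba-a2* (0.59) and *Hbb-b1* (0.48) were above that of 96.9% and 93.9%. With slide means removed the SD of *Mb* was 0.39, above that of 89.3% of the probes, and that of *Hbb-b1* was 0.41, above that of 91.3%. *Hba-a1* and *Hbb-b2* each had an SD of 0.34 within groups, above that of 79.3% and 79.4% of the probes. *Alas2* had an SD of 0.27 within groups, above that of 60.9% of the probes. In the Cy5 channel alone, after quantile normalization between arrays, the SD over 24 arrays was 0.24 for *Mb*, 0.37 for *Hba-a1*, 0.34 for *Hba-a2*, 0.50 for *Hbb-b1* and 0.37 for *Hbb-b2*. On that scale the order was thus turned, with *Mb* less spread than the 4 haemoglobin probes. Quantile normalization itself limits the spread of the brightest probes, so that this order does not compare the variation among mice. The same SD in the reference channel, which carries 1 pool on all arrays, was 0.048 for *Mb*, above that of 0.915% of the probes. It was between 0.074 and 0.11 for the haemoglobin probes.

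Across all 24 mice the haemoglobin genes had positive correlations with each other and with *Alas2*, but in Hypox alone some pairs did not. Correlations are descriptions over arrays that share slides and a normalization within each array, and no P-value is given. Among the 4 haemoglobin genes Pearson's r ranged from 0.203 to 0.738 over 6 pairs and Spearman's rho from 0.246 to 0.843, and r with slide means removed from 0.231 to 0.580. *Alas2* with the 4 haemoglobin genes gave r from 0.492 to 0.613, and from 0.350 to 0.596 with slide means removed. The highest r between 2 blood genes was that of *Hba-a2* with *Hbb-b1*, at 0.738 (rho 0.843), 0.855 without slide 1 and 0.561 with slide means removed. Within Norm the 6 haemoglobin pairs gave r from 0.699 to 0.892 (n = 12), and within Hypox from -0.274 to 0.814 (n = 12), where *Hbb-b2* with *Hba-a2* (-0.274) and with *Hbb-b1* (-0.257) were below 0. The difference between the groups in these r was not tested. *Slc4a1*, at background, gave r from -0.115 to 0.194.

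*Mb* went with *Hba-a2* across the arrays, but not within slides. Its r with *Hba-a2* was 0.775 (rho 0.557) over 24 arrays, 0.193 without slide 1 and 0.10 with slide means removed. With *Hba-a1* it was 0.401, 0.152 and 0.0479 in the same order, and with *Hbb-b1* it was 0.359, 0.0143 and -0.518. In the authors' normalized log2 values *Mb* gave r from 0.733 to 0.859 with the 4 haemoglobin genes, and *Alas2* gave r from -0.247 to -0.0525 with them. The haemoglobin genes gave r from 0.780 to 0.931 with each other in those values. The part of array brightness in these r was not tested.

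**Figure D4:**
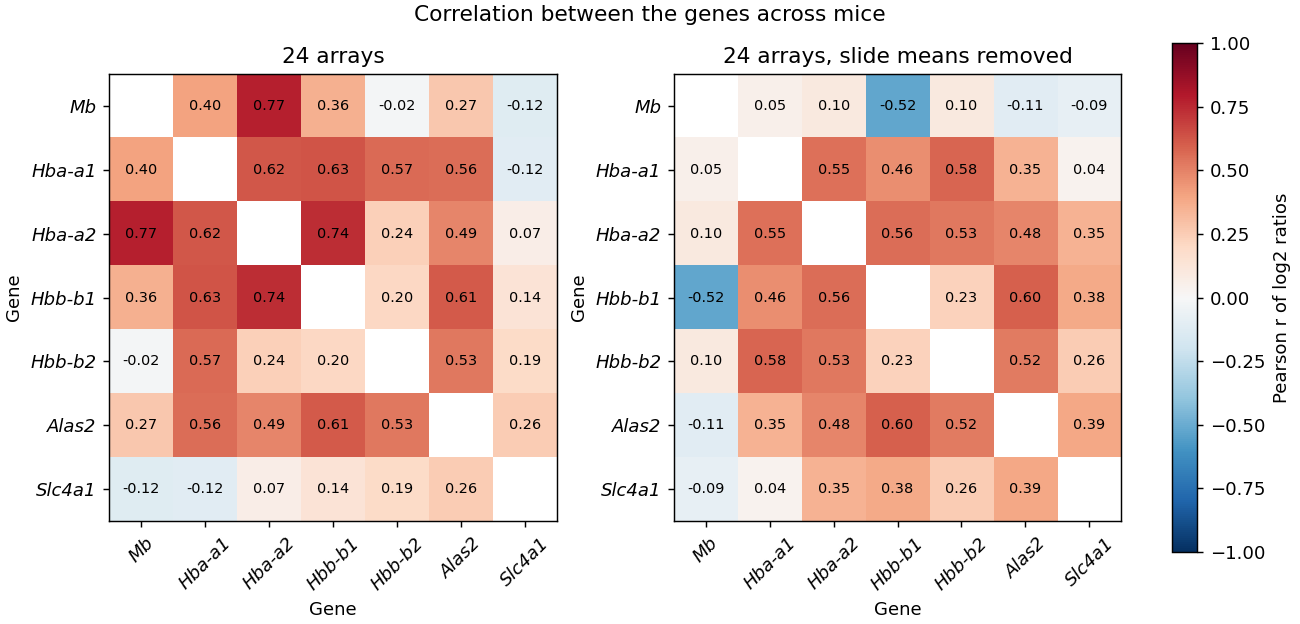
Pearson's r between the log2 ratios of the 7 genes over 24 arrays (left) and after slide means were removed (right), by colour and value. The haemoglobin genes and *Alas2* keep r between 0.23 and 0.60 on the right, while that of *Mb* with *Hba-a2* is 0.77 on the left and 0.10 on the right.

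The genes whose log2 ratios were most like those of *Mb* depended on slide 1. Over 24 arrays and 9152 genes compared, the 5 highest r were those of *Tcap* (0.948), which encodes the sarcomere protein telethonin, *Atp5b* (0.947), a subunit of ATP synthase, *Gm8709* (0.946), *Gapdh* (0.944), a glycolytic enzyme, and *Pgam2* (0.941), the muscle form of phosphoglycerate mutase. Without slide 1 their r lay between 0.699 and 0.806, and the 5 highest were those of *Tmub2* (0.840), *Hdac10* (0.811), *Atp5b* (0.806), *Pcm1* (0.793) and *Fkbp8* (0.778), with *Atp5b* as the 1 gene in both. Most like the mean of the 4 haemoglobin genes were *Gm10653* (0.820), *Serf2* (0.809), *Gpd1* (0.807), the cytosolic glycerol-3-phosphate dehydrogenase, *Gm14407* (0.797) and *Mafk* (0.796), a small MAF transcription factor. Without slide 1 the 5 highest held *Serf2* and *Mafk* of these. *Serf2* had an r of 0.808 without slide 1 and of 0.657 with slide means removed, and *Mafk* of 0.784 and 0.719. Their log2 fold changes were 0.18 (limma adjusted P = 0.624) and 0.065 (limma adjusted P = 0.775).

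Among the other globins, the adult β-globin probe Beta-s was higher in Hypox without passing adjustment. Its values ranged from -1.01 to -0.062 in Norm (median -0.52) and from -0.63 to 1.36 in Hypox (median -0.25). The log2 fold change was 0.42 (SE 0.17, unadjusted limma P = 0.0186, adjusted P = 0.247), and the Hypox mean was the higher one on 5 of 6 slides. Beta-s gave r = 0.531 with the haemoglobin mean. Cytoglobin (*Cygb*), the globin of fibroblast-like cells, was at -0.096 (adjusted P = 0.692), and 7 of the 9 other globin genes on the array, with the embryonic globins among them, were too dim to be tested. The Norm range of the summed Cy5 level of Beta-s and *Cygb* was 555 to 915 and the Hypox range 662 to 1133, in quantile-normalized units.

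The genes of haem synthesis passed the thresholds no more often than all probes did. All 11 genes of the list were tested, 0 passed an adjusted P-value of 0.05 and 1 passed an unadjusted one, which 13.8% of all probes passed, with a median log2 fold change of 0.038 against 0.022 over all probes. That gene was *Alad*, the enzyme after 5-aminolevulinate synthase, which ranged from -0.89 to -0.21 in Norm (median -0.49) and from -0.43 to 0.40 in Hypox (median -0.22). Its log2 fold change was 0.36 (SE 0.092, limma adjusted P = 0.0532), with a higher Hypox mean on 6 of 6 slides. Over 14 other settings its adjusted P ranged from 0.0148 to 0.739, and without each array from 0.0257 to 0.106, so that the call depends on the setting. *Alad* gave r = 0.206 with the haemoglobin mean. *Uros*, a later enzyme of the pathway, was at 0.33 (adjusted P = 0.431). *Alas1*, the form of the first enzyme that is not limited to red cells, was at -0.12 (adjusted P = 0.775) and 72.9 times its background, and went against the haemoglobin mean (r = -0.664).

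Haem breakdown and iron genes and red cell genes showed no gene past either threshold. With slide as a block *Slc40a1* (unadjusted limma P = 0.0405, adjusted P = 0.291) and *Hemgn* (unadjusted P = 0.0264, adjusted P = 0.250) were past the unadjusted one. So were 2264 of all 14421 probes in that model. Of 15 haem breakdown and iron genes on the array 10 were tested, with a median of 0.11. The iron exporter *Slc40a1* was at 0.21 (adjusted P = 0.363), the ferritin light chain *Ftl1* at -0.23 (adjusted P = 0.444, with a second and dimmer probe at 0.22) and *Hmox1*, the inducible haem oxygenase, at 0.16 (adjusted P = 0.461). Of 24 red cell membrane and enzyme genes 9 were tested, with a median of -0.041, and 12 were on no array well above background. *Hemgn*, which encodes hemogen of blood-forming cells, was at -0.27 (adjusted P = 0.493). *Bpgm*, which makes 2,3-bisphosphoglycerate, was at 0.13 (adjusted P = 0.543) and *Ank1*, which encodes ankyrin 1, at 0.12 (adjusted P = 0.558). Of 8 erythroid regulators 1 was tested, *Zfpm1* (FOG1, the partner of GATA1), at 0.14 (adjusted P = 0.548).

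The regulators of the myoglobin gene were all measured, and 3 of 14 were lower in Hypox at an unadjusted limma P-value under 0.05, against 6.44% of all probes, and none after adjustment. The median of the list was -0.030, and 5 of the 14 were higher, among them *Mef2c* (0.12, adjusted P = 0.771) and *Mef2d* (0.095, adjusted P = 0.712). *Nfatc1*, a calcineurin-dependent factor of slow fiber genes, was at -0.26 (adjusted P = 0.237), *Tead1* at -0.25 (adjusted P = 0.296) and *Sp1* at -0.15 (adjusted P = 0.338). A dimmer probe of *Nfatc1* was at -0.057 and one of *Tead1* at -0.14. *Ppargc1a*, the coactivator PGC-1α, was at -0.21 (adjusted P = 0.374) and lower on 6 of 6 slides, with an unadjusted limma P = 0.0463 with slide as a block. Of all 14421 probes, 2264 had an unadjusted limma P-value under 0.05 in that model. The calcineurin subunits *Ppp3ca*, *Ppp3cb* and *Ppp3r1* were between -0.013 and 0.032.

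Markers of the fiber types and of other cells moved as follows beside the globin and myoglobin values. All 10 slow fiber genes were higher in Hypox, as were 8130 of all 14421 probes, with a median of 0.32. Of them 3 had an unadjusted limma P-value under 0.05, against 7.4% of all probes in that direction, led by *Tnni1*, the slow troponin I, at 0.61 (adjusted P = 0.0733, and 0.0433 with slide as a block), *Casq2* at 0.27 (adjusted P = 0.214) and *Tnnc1* at 0.44 (adjusted P = 0.275). Their summed Cy5 level had a Norm range of 12472 to 61571 and a Hypox range of 31151 to 47557. Of 10 fast fiber genes 7 were lower, with a median of -0.25, and the 1 with an unadjusted P-value under 0.05, *Mylpf*, was higher, at 0.36 (adjusted P = 0.0714). *Myh1* was at -0.26 (adjusted P = 0.458), *Myh4* at -0.59 (adjusted P = 0.478) and *Pvalb* at -0.48 (adjusted P = 0.588). With slide as a block these 3 had an unadjusted limma P-value under 0.05 as well (0.0105, 0.0041 and 0.0183), with adjusted P-values of 0.171, 0.118 and 0.212. In that model 2264 of all 14421 probes had an unadjusted limma P-value under 0.05, in either direction. The fast fiber sum had a Norm range of 283387 to 425639 and a Hypox range of 215582 to 404599.

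Of 10 endothelial genes 7 were tested, 5 of them higher and 2 lower in Hypox, with a median of 0.19 (0.099 without slide 1). *Esam* (0.28, limma adjusted P = 0.0857), *Cldn5* (0.30, adjusted P = 0.152) and *Cdh5* (0.38, adjusted P = 0.161) were higher at an unadjusted P-value under 0.05, as were 7.4% of all probes, and on 6 of 6 slides. *Kdr* was at -0.15 (adjusted P = 0.628) and *Tie1* at -0.0040 (adjusted P = 0.994). The summed endothelial level had a Norm range of 2081 to 3206 and a Hypox range of 2435 to 3196, and its log2 had r = -0.300 with the haemoglobin mean. Leukocyte genes (3 of 15 tested, median 0.0040, 7 on no array well above background) and platelet genes (1 of 6 tested, *Pf4* at -0.15, 5 on no array well above background) had no probe past either threshold. The leukocyte sum had a Norm range of 334 to 628 and a Hypox range of 323 to 551, and the platelet value from 165 to 317 and from 143 to 279. Adipocyte genes were lower in 4 of 4 tested, as were 6291 of all 14421 probes. Of the 4, 2 had an unadjusted limma P-value under 0.05 (6.44% of all probes in that direction). They were *Cfd* at -0.56 (adjusted P = 0.254) and *Adipoq* at -0.33 (adjusted P = 0.307). With slide as a block *Retn* was a further gene under 0.05, as were 2264 of all 14421 probes in either direction. The adipocyte sum had a Norm range of 647 to 3229 and a Hypox range of 614 to 1276. Of the lung genes, 1 of 10 was tested, *Sftpc* at 0.81 (adjusted P = 0.242). Its level had a Norm range of 57.3 to 66.3 and a Hypox range of 56.7 to 541. *Sftpc* was well above background on only 4 arrays, and passed the filter by its mean signal (3.48 times the background). On the remaining arrays its log2 ratio was that of a probe not well above background, so that 0.81 does not measure a change in RNA. The part of these markers in the globin and myoglobin values was not tested.

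**Figure D5:**
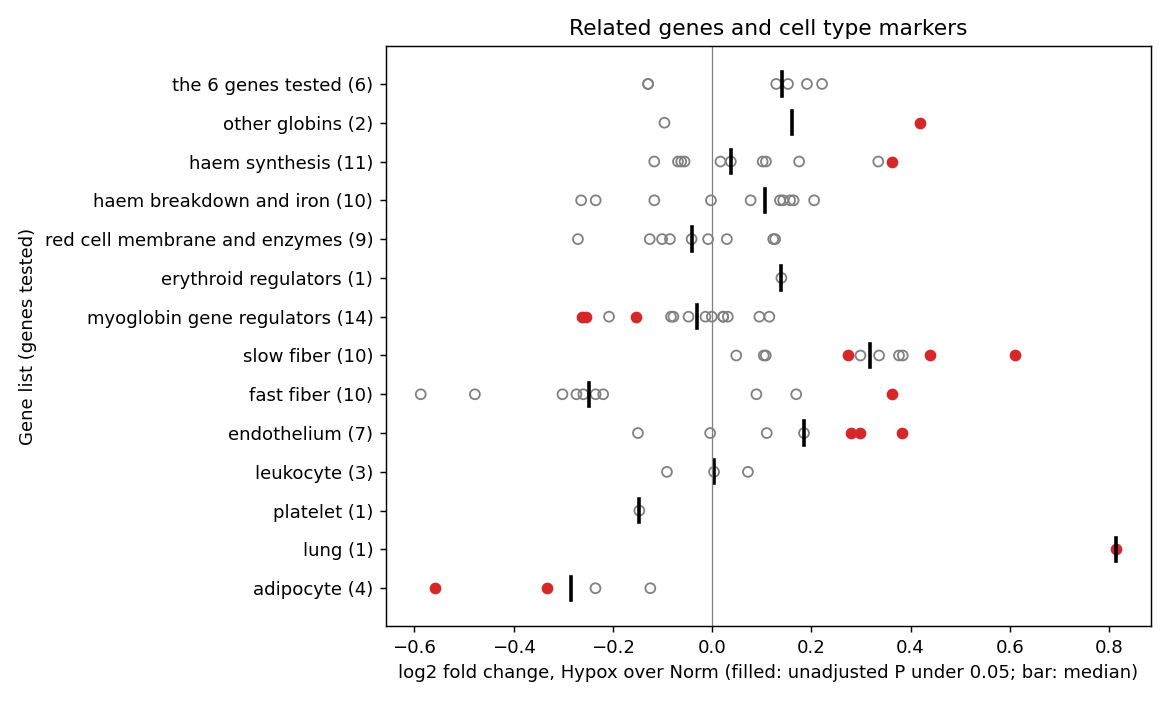
Log2 fold change of Hypox over Norm for the 6 genes tested and for each tested gene of the 13 lists, with a bar at the median and filled points at an unadjusted limma P-value under 0.05. The 6 genes lie between -0.13 and 0.22, and all 10 slow fiber genes lie above 0.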

How the data were processed

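The authors deposited the Agilent scanner output of 24 arrays (Feature Extraction 10.7.3.1, mm9), with a mean intensity and a local background for every spot and no normalization between arrays. They also deposited normalized log2 values (made in GeneMaths XT) for 21335 of the 59305 non-control spots, used as an alternative. Their scaling and use of the Cy3 channel are unknown (column median 6.58). Groups came from the labels, dyes from the sample descriptions and slides from the scanner output. Control spots and 7260 flagged readings were dropped, and no spot of the 7 genes was saturated. The signal was corrected with normexp (offset 50), log2 ratios were normalized by loess within arrays and spots of a probe averaged. Probes over 2 times the local background in mean Cy5 and lacking at most 4 arrays were tested with limma 3.58.1 (R 4.3.3), with Benjamini-Hochberg adjustment over all of them. limma recovered 96.5% of 200 of 14421 probes changed by 1 (log2) in simulated data, with 5 false calls. Per array, 9.42% to 37.8% of the spots were well above background, so that dim genes are less precise, and precision is limited by the 12 arrays a group.

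The genes, lists and tests were chosen with earlier results of these data known. Of each list, up to 3 genes with the smallest P-value were named, and the 5 genes most like *Mb* or the haemoglobin mean. A gene that this rule includes is not reported here. *Ppargc1a*, the calcineurin subunits, *Alas1* and *Tnni2* were named after their values were seen. Lists were summarised by the brightest probe of each gene. Promoters were from RefSeq (GRCm38.p6), which held 1 window each for *Hba-a1*, *Hba-a2*, *Hbb-bt*, *Hbb-bs* and *Alas2* and 3 for *Mb*. Alternatives were the processed signals, no background subtraction, median centring, Cy5 alone, the methods' t-test, the deposited log2 values, other filters, the mean of a gene name's probes, slide or replicate blocks, array weights and leaving out each array. Leaving out slide 1 was added after the data were seen. Figures were drawn with matplotlib 3.10.9.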

Additional observations from a re-analysis of the deposited data

How the results depend on the processing

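No setting brought any of the 6 genes past an adjusted P-value of 0.05. *Hba-a1*, *Hbb-b1*, *Hbb-b2* and *Alas2* stayed higher in Hypox in all 15 other settings and without each array, but by amounts that moved by over 1.5 times. *Hba-a1* was at 0.083, 0.098 and 0.10 without Norm replicates 9, 7 and 3, *Hbb-b1* at 0.10 and 0.14 without Hypox replicates 12 and 2 and at 0.011 with array weights, *Hbb-b2* at 0.13 without Norm replicate 9, and *Alas2* at 0.081 without Hypox replicate 2, at 0.041 with array weights and at 0.064 with the deposited values. Median centring raised all 4 (0.23 to 0.66), the deposited values the 3 globins (0.35 to 0.48) and leaving out slide 1 *Hba-a1* (0.24) and *Hbb-b2* (0.33). *Slc4a1*, at background, had no value with the deposited values, the stricter filter, the mean per gene name, the t-test or array weights. The sign for *Mb* turned with the processed signals (0.18), median centring (0.62), Cy5 alone (0.15), the deposited values with limma or the t-test (0.44) and without slide 1, with or without slide as a block (0.0033). Leaving out 1 array gave -0.29 to 0.047 for *Mb*, and Norm replicates 4 (0.029) and 11 (0.047) each turned the sign. For *Hba-a2* the sign turned with the processed signals (0.022), median centring (0.52), Cy5 alone (0.13) and the deposited values with either test (0.33), and leaving out 1 array gave -0.20 to -0.012. Median centring moved the median of all probes from 0.022 to 0.24. The cause was not tested.

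The count of 136 probes past an adjusted P-value of 0.05 became 253 with the processed signals, 0 with median centring (57 at an unadjusted limma P-value under 0.05), 66 with Cy5 alone, 86 with the methods' t-test, 45 without the filter, 690 with array weights and 76 without slide 1 with slide as a block. With the deposited values it was 1 with limma and 0 with the t-test (1042 at an unadjusted P-value under 0.05). Leaving out 1 array gave 40 to 231. It moved by over 1.5 times when any of these was left out: Norm replicates 1, 2, 5, 6, 7 and 12, and Hypox replicates 3, 7, 8, 10 and 11. With the replicate number as a block the count was 62. The numbers do not pair the mice, since same-numbered arrays gave correlations of their deviations from -0.205 to 0.400, over 0.1 in 3 of 12 pairs, and 2 of 12 Norm arrays went best with their own number. Low signal over background limits *Alas2* and *Slc4a1*.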

Other observations

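The *Hemgn* probe of the red cell list was well above background on all 24 arrays, at 179 times its background, whereas 12 of the 24 genes of that list were well above background on no array. Its log2 ratios went with those of *Mb* (r = 0.802 over 24 arrays) and with the haemoglobin mean (r = 0.603). Its log2 fold change was -0.27 (limma adjusted P = 0.493), and -0.16 without slide 1. These correlations were looked at after the values of the gene were seen, and no explanation was tested.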
